A study of Bos taurus with 8 samples.

Results

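Notch receptors, their ligands and the target genes HES1 and HEY1 were measured in bovine granulosa cells from follicles with a High A4 or a Control content of androstenedione (A4), an androgen. The set held 10 genes chosen by name: the receptors NOTCH1, NOTCH2, NOTCH3 and NOTCH4, the ligands JAG1, JAG2, DLL1 and DLL4, and the targets HES1 and HEY1. Each had 1 probe set with a single gene symbol, so they were 10 of the 26773 probe sets on the array and 10 of the 18010 genes with a single symbol. Granulosa cells, the somatic cells inside the follicle wall that turn androgen into estrogen, came from the estrogen-active dominant follicle of 4 High A4 cows (mean A4 of 356 ng/mL in the follicular fluid per the series description) and 4 Control cows (mean A4 of 1.9 ng/mL). All 8 were beef cows of 75% Red Angus and 25% MARC III breeding, synchronized with gonadotropin releasing hormone, a progesterone device kept in place for 7 days and PGF2α at its removal, and ovariectomized about 36 hours later. Their ages are not stated. No treatment with androgen is described. The study first classed cows as High A4 or Control by the A4 of their dominant follicles over several cycles. For the arrays it took 4 High A4 cows at the top of their group's A4 and 4 Control cows at the bottom of theirs. The groups were thus formed by the A4 that the follicles held, so A4 and other differences between these follicles cannot be told apart. Each cow gave 1 array (n = 4 cows per group), mural and cumulus cells were pooled, and their purity was put at 94% or more.

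Notch signalling passes between touching cells. A Jagged or Delta ligand on 1 cell binds a Notch receptor on its neighbour, the metalloprotease ADAM10 and then the γ-secretase complex cut the receptor, and the freed intracellular domain enters the nucleus. There it joins the DNA-binding protein RBPJ and a Mastermind coactivator and switches on genes of the HES and HEY families, which encode transcriptional repressors. In the mouse ovary, JAG1 of the oocyte and NOTCH2 of the granulosa cells are known for their part in the formation of follicles, while DLL4 and NOTCH4 are best known from the endothelium of blood vessels and NOTCH3 from the mural cells around them.

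Of the 10 Notch genes, 3 were above the noise threshold of the study, a normalized linear intensity of 100, and none of the 3 passed the test between High A4 and Control granulosa cells. These were NOTCH1, NOTCH2 and DLL4. The other 7, both targets among them, had intensities between 12.3 and 58.6 on the 8 arrays and thus never reached 100. Among the 10120 probe sets that exceeded 100 in the mean of either group, limma called 158 higher (1.56%) and 63 lower (0.623%) in High A4 at an adjusted p under 0.05, or 2.18% in either direction, so 0 calls among 3 genes lay near that background. At an unadjusted p under 0.05, limma gave 1 of the 3 (NOTCH1) and 21.9% of all probe sets, and an analysis of variance without moderation gave 0 of the 3. The High A4 and Control cows overlapped in all 10 genes. Of the 10120 probe sets tested, all above noise, 13.4% did not overlap, and 0 of the 3 genes above noise lay near that share. Most probe sets tested were lower in High A4 (74.3%, median log2 fold change -0.16), while NOTCH1, NOTCH2 and DLL4 all had positive log2 fold changes.

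NOTCH1, a receptor, had intensities of 298, 447, 254 and 310 in the 4 High A4 cows, against 244, 292, 211 and 111 in the 4 Control cows. The lowest High A4 cow lay below the highest Control cow, and Control replicate 4 lay far under the other Control cows. The means were 328 ± 83.4 in High A4, against 215 ± 76.7 in Control (± SD, 4 cows a group). The log2 fold change was 0.66 (SE, the standard error, 0.29, 95% interval 0.019 to 1.31), a fold change of 1.58 with an interval of 1.01 to 2.48, and limma's adjusted p was 0.218. Of all probe sets tested, 3.16% had a larger log2 fold change. NOTCH1 did not pass in any of 18 alternatives (adjusted p from limma or the analysis of variance 0.171 to 0.441), and its log2 fold change was 0.37 without Control replicate 4 and 0.29 with array weights.

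NOTCH2, the receptor known from granulosa cells of the mouse, gave 828, 1054, 719 and 693 in High A4 and 772, 795, 728 and 624 in Control. High A4 replicate 2, which also had the highest NOTCH1, stood above all other cows, High A4 replicate 1 was also above all Control cows, and High A4 replicates 3 and 4 lay inside the Control range. The means were 824 ± 164 in High A4, against 730 ± 76.0 in Control (± SD, 4 cows a group, log2 fold change of 0.16, SE 0.16, limma's adjusted p 0.561). The 95% interval of the fold change ran from 0.871 to 1.44, so a doubling or a halving lay outside it. Without High A4 replicate 2 the log2 fold change was 0.036.

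NOTCH3 and NOTCH4 stayed below the noise threshold on every array. NOTCH3 had 38.1 to 54.5 in High A4 and 36.8 to 42.6 in Control, and NOTCH4 had 35.5 to 52.1 in High A4 and 28.4 to 40.6 in Control. Their log2 fold changes in a fit of all 26773 probe sets without the noise filter were 0.23 for NOTCH3 (adjusted p = 0.387 from limma) and 0.31 for NOTCH4 (adjusted p = 0.285 from limma). In that fit 10.1% of probe sets were called. Dim probe sets leaned towards High A4, the median log2 fold change being 0.079 in the 5231 whose mean intensity was 32 to 64.

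DLL4, a Delta ligand, had the largest log2 fold change of the 10 genes and the largest spread. It gave 253, 349, 445 and 347 in High A4, against 159, 155, 530 and 125 in Control. All High A4 cows were above Control replicates 1, 2 and 4, while Control replicate 3 was above every High A4 cow. The means were 348 ± 78.3 in High A4, against 242 ± 192 in Control (± SD, 4 cows a group), and the SD on the log2 scale was 0.33 in High A4 and 0.94 in Control. The log2 fold change was 0.76 (standard error 0.40, 95% interval -0.13 to 1.66, adjusted p = 0.282 from limma, 0.0156 to 0.4996 over the 18 alternatives). Without Control replicate 3, an alternative that removes the cow standing apart, DLL4 was 348 ± 78.3 in High A4 (4 cows), against 146 ± 18.4 in Control (3 cows). Its log2 fold change was then 1.23 ± 0.20 (standard error) and limma's adjusted p was 0.0156. DLL4 did not pass with all 8 cows or without any other single cow, so 1 cow decided the call.

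**Figure D1:**
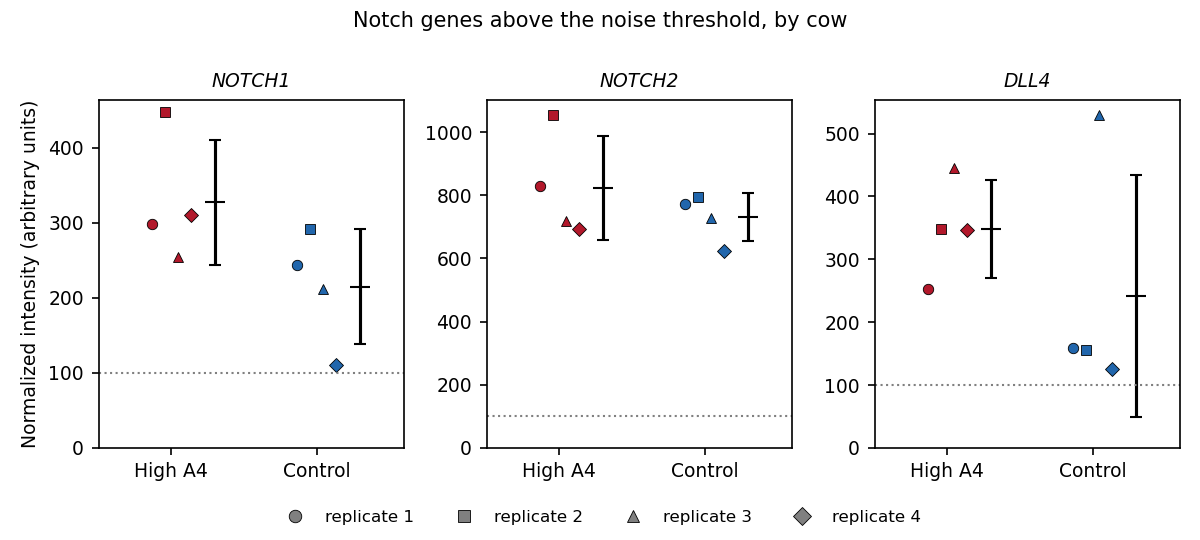
Normalized intensity (arbitrary units, linear axis from 0) of NOTCH1, NOTCH2 and DLL4 in each cow, High A4 left and Control right, with 1 symbol shape per replicate number, the mean and SD as black bars, and the noise threshold of 100 as a dotted line. The groups overlap in all 3 genes, and in DLL4 the Control cow at 530 lies apart from the other Control cows at 125 to 159.

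JAG1, JAG2 and DLL1, the other ligands, were below the noise threshold in both groups. JAG1 gave 37.1, 39.6, 34.5 and 32.5 in High A4, against 58.6, 43.3, 51.9 and 30.6 in Control. Control replicate 4 was the lowest of all 8 cows, and the other Control cows were above every High A4 cow. The log2 fold change of JAG1 was -0.32 (standard error 0.20, adjusted p = 0.347 from limma without the filter), and with 1 cow left out it lay between -0.51 without Control replicate 4 (adjusted p = 0.0996 from limma) and -0.19 without Control replicate 1 (adjusted p = 0.5995 from limma). JAG2 (30.9 to 44.8 in High A4, 35.7 to 44.1 in Control) and DLL1 (30.0 to 47.6 in High A4, 32.1 to 40.0 in Control) had log2 fold changes of -0.10 and 0.11, with adjusted p of 0.724 and 0.722 from limma without the filter, and the sign of DLL1 turned with quantile normalization and cyclic loess.

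The targets HES1 and HEY1, which encode repressors that Notch switches on, were below the noise threshold on every array. HES1 had 20.3, 13.2, 17.3 and 23.4 in High A4, against 26.1, 23.8, 24.9 and 17.4 in Control. All High A4 cows lay below Control replicates 1, 2 and 3, while Control replicate 4 lay inside the High A4 range. Its log2 fold change was -0.33 (95% interval -0.78 to 0.12, adjusted p = 0.35 from limma without the filter), where the 5362 probe sets of 16 to 32 mean intensity had a median of 0.18. It was -0.18 without High A4 replicate 2, -0.61 with quantile normalization and -0.59 with cyclic loess, and did not pass in any of 16 alternatives. HEY1 had 13.2 to 19.6 in High A4 and 12.3 to 22.3 in Control (log2 fold change of -0.050, limma's adjusted p 0.908 without the filter), and its sign turned in 4 of the alternatives. At these intensities the probe sets cannot show whether the 2 genes were expressed, and their fold changes are given as measured values of dim probe sets. For all 7 genes below the noise threshold, the 95% interval of the fold change lay between 0.5 and 2. These intervals describe intensities under the noise threshold and set no bound on a change of the transcripts.

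**Figure D2:**
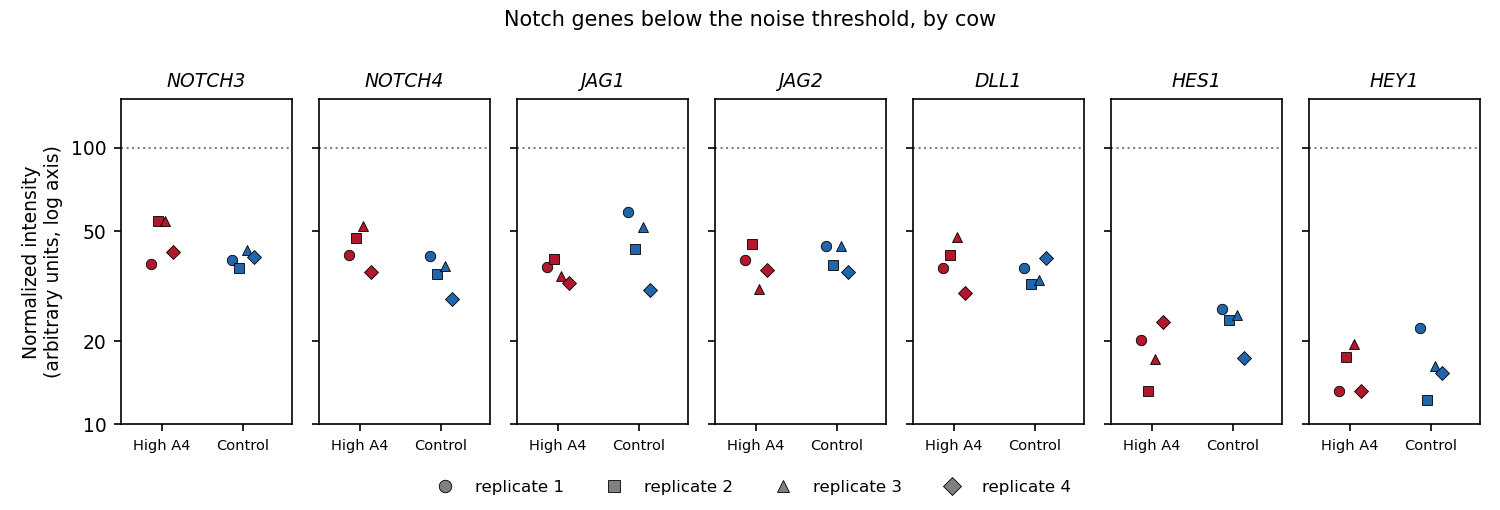
Normalized intensity (arbitrary units, log axis) of the 7 Notch genes below the noise threshold of 100 (dotted line) in each cow, High A4 left and Control right, with 1 symbol shape per replicate number. All values lie between 12.3 and 58.6 and the groups overlap in every gene.

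**Figure D3:**
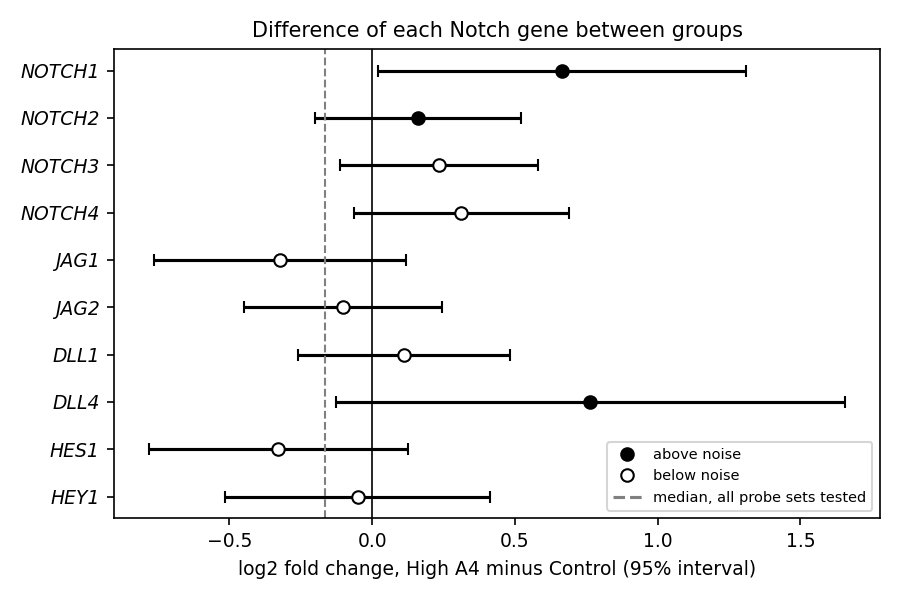
Log2 fold change of the 10 Notch genes, High A4 minus Control, with 95% intervals from limma. Filled points are above the noise threshold and open points below it, and the dashed line marks the median of -0.16 over the 10120 probe sets tested. NOTCH1 alone has an interval that does not reach 0, and it runs from 0.019 to 1.31 before adjustment.

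Single cows were the lowest or highest of their group in several Notch genes. Control replicate 4 was the lowest Control cow in 7 of the 10 genes (NOTCH1, NOTCH2, NOTCH4, JAG1, JAG2, DLL4 and HES1). Over all probe sets tested it was the lowest Control cow in 32.1% and the highest in 38.7%. Its array had the lowest median intensity, 47.9, where the arrays of the other cows had 49.1 to 54.6. In High A4, replicate 2 was highest for NOTCH1, NOTCH2, JAG1 and JAG2, and replicate 3 for NOTCH3, NOTCH4, DLL1, DLL4 and HEY1, where over all probe sets tested replicate 2 was highest in 18.7% and replicate 3 in 15.1%. High A4 replicate 4 was lowest of its group for NOTCH2, NOTCH4, JAG1, DLL1 and HEY1, against 13% of all probe sets tested. The shares cover probe sets above noise, whereas NOTCH3, NOTCH4, JAG1, JAG2, DLL1, HES1 and HEY1 were below it. The counts describe the cows and were not tested.

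**Figure D4:**
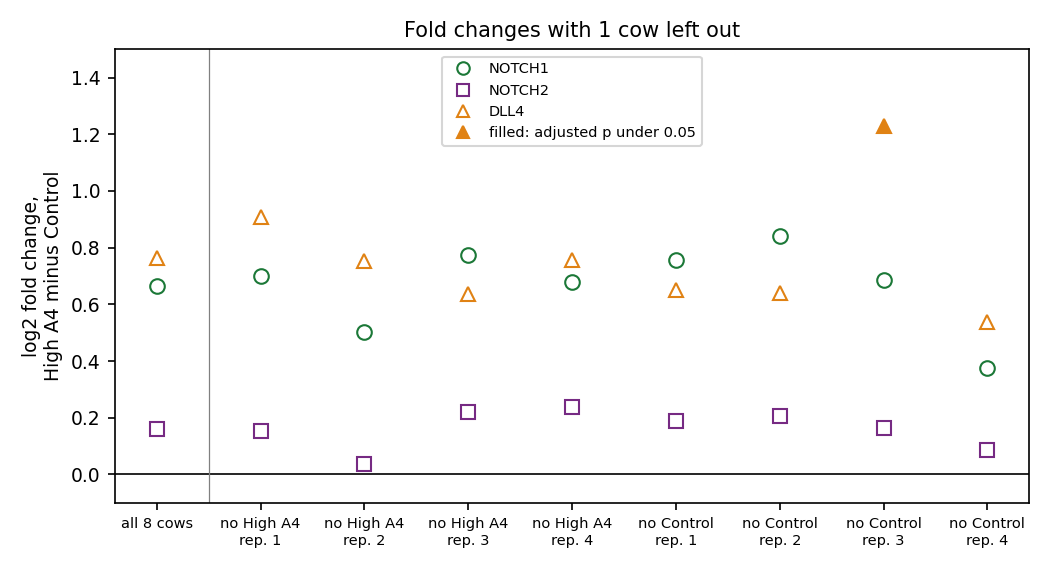
Log2 fold change of NOTCH1, NOTCH2 and DLL4, High A4 minus Control, with all 8 cows and with each cow left out in turn, where a filled symbol has an adjusted p under 0.05 from limma. The only filled symbol is DLL4 without Control replicate 3, at 1.23, and NOTCH1 is lowest without Control replicate 4, at 0.37.

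Markers of other cells that carry Notch genes were examined beside these values. In bulk RNA, fewer cells of a type and less RNA per cell cannot be told apart. Of 16 granulosa markers, 13 were above the noise threshold, of which 7 were higher and 6 lower in High A4 and 0 passed, also at an unadjusted p under 0.05 in limma. Among them were FSHR, the receptor of follicle stimulating hormone, at 1239 to 1910 in High A4 and 1175 to 2205 in Control, and FOXL2, a transcription factor of granulosa cells, at 559 to 1109 in High A4 and 554 to 912 in Control. INHBA, an inhibin and activin subunit, did not overlap, with 5860 to 6256 in High A4 and 5052 to 5515 in Control (limma's adjusted p 0.272). IHH, a hedgehog ligand below the noise threshold, had 22.2 to 30.9 in High A4 and 45.7 to 61.6 in Control, and passed in the fit of all probe sets (log2 fold change -1.02, limma's adjusted p 0.0024), where 10.1% were called. Of 13 endothelial markers, 12 were below the noise threshold in both groups, PECAM1 (18.8 to 26.7 in High A4, 17.4 to 31.1 in Control) and CDH5 (29.1 to 43.0 in High A4, 28.8 to 37.5 in Control) included. The other, ENG, had 82.8 to 152 in High A4 and 59.1 to 98.4 in Control (log2 fold change 0.69, limma's adjusted p 0.130). ENG was tested only because its High A4 mean of 125 exceeded 100, where its Control mean was 76.9. Of the 13, 9 had higher means on the log2 scale in High A4, and the summed intensity of all 13 was 509 to 604 in High A4 and 424 to 511 in Control. Probe sets as dim as the 12 leaned towards High A4 in general. The median log2 fold change of the 13 was 0.19, beside 0.18 over all probe sets of 16 to 32 mean intensity and 0.079 over those of 32 to 64. The summed intensity of 9 smooth muscle and pericyte markers, a list that holds NOTCH3 itself, was 486 to 726 in High A4 and 504 to 563 in Control, with 8 of the 9 below the noise threshold. In that list the pericyte marker RGS5 had 36.7 to 46.2 in High A4 and 18.7 to 30.2 in Control (log2 fold change 0.87, limma's adjusted p 0.00864 without the filter), and MYH11, a myosin of smooth muscle, had 73.9 to 82.7 in High A4 and 93.1 to 98.7 in Control (-0.31, limma's adjusted p 0.149 without the filter). Of 9 measured theca markers, 6 were above the noise threshold and 2 rose in High A4, where 1.56% of all probe sets tested rose. These were CYP17A1, an enzyme of androgen synthesis (log2 fold change 2.59, limma's adjusted p 0.0223), and ALDH1A1, an enzyme of retinoic acid synthesis (1.87, limma's adjusted p 0.000384). ALDH1A1 had 175 to 205 in High A4 and 33.4 to 62.6 in Control, so ALDH1A1 was tested only because its High A4 mean exceeded 100. The sum of all 9 was 6006 to 9459 in High A4 against 3084 to 5263 in Control without overlap. LHCGR, the luteinizing hormone receptor that granulosa cells of dominant follicles also express, made up 3661 to 4963 of it in High A4 and 2102 to 3862 in Control, with overlap (limma's adjusted p 0.157), and 3 of the 9 (NR2F2, PTCH1 and TCF21) had negative log2 fold changes that did not pass. Of 13 stromal markers 5 were above the noise threshold and 2 rose, the proteoglycans DCN and OGN, where 1.56% of all probe sets tested rose. DCN had 227 to 602 in High A4 and 94.4 to 181 in Control. OGN had 88.7 to 130 in High A4 and 30.4 to 48.2 in Control, so it was tested only because its High A4 mean exceeded 100. The sum of all 13 was 2179 to 3961 in High A4 against 918 to 2923 in Control, with overlap. LUM, a stromal marker that did not pass (limma's adjusted p 0.424), made up 933 to 2107 of it in High A4 and 247 to 1905 in Control. Of the 8 stromal markers below noise, COL3A1, MGP and COL1A2 were higher in High A4 at an adjusted p under 0.05 in limma without the filter. In that fit 10.1% of all probe sets were called. The other 5 below noise did not pass, and of these POSTN (log2 fold change -0.18) and TCF21 (-0.29) were lower in High A4. Control replicate 4 had the lowest theca, stromal and endothelial sums of the 8 cows as well as the lowest NOTCH1 and DLL4. Control replicate 3 had the highest DLL4 of the 8 cows. Its theca sum of 5206, stromal sum of 1670 and endothelial sum of 481 were below those of every High A4 cow. All 14 leukocyte markers were below the noise threshold, with PTPRC at 51.3 to 97.2 in High A4 and 39.3 to 63.7 in Control. Their sum was 501 to 880 in High A4 and 463 to 789 in Control. Control replicate 3 had the 789 and High A4 replicate 1 had the 880. All 7 measured oocyte markers were below the noise threshold, and their sum was 140 to 169 in High A4 and 126 to 139 in Control without overlap, at intensities where probe sets in general leaned towards High A4. BMP15, an oocyte growth factor, had 29.3 to 36.9 in High A4 and 18.5 to 23.7 in Control (log2 fold change 0.73, limma's adjusted p 0.0087 without the filter). The markers named here outside those that passed above noise or define their cell type were chosen after their values were seen. The part of these cells in the Notch values was not tested.

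The rest of the Notch pathway was described with 79 other genes, of which 74 could be matched to a probe set by symbol and 44 were above the noise threshold. Of the 44, 0 rose, 1 fell and 43 did not pass, where 1.56% of all probe sets tested rose and 0.623% fell. At an unadjusted p under 0.05, 1 was higher and 6 were lower, where 4.83% of all probe sets tested were higher and 17.1% lower. The median log2 fold change of the 44 was -0.10, beside -0.16 over all probe sets tested.

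The gene that fell was SNW1, which encodes SKIP, a nuclear protein of the spliceosome that also binds the Notch intracellular domain in the coactivator complex. SNW1 gave 92.9, 92.2, 106 and 129 in High A4, against 164, 171, 161 and 176 in Control. The groups did not overlap. The means were 105 ± 17.0 in High A4, against 168 ± 6.77 in Control (± SD, 4 cows a group, log2 fold change of -0.69, SE 0.14, limma's adjusted p 0.0348). The call held in 6 of 18 alternatives, of which 1 left out a cow (High A4 replicate 4), and the adjusted p ranged from 0.00684 to 0.137, with the log2 fold change between -0.79 and -0.50. All 9 measured nuclear coactivators had negative log2 fold changes, with a median of -0.16 that equalled that of all probe sets tested. RBPJ, the DNA-binding partner of Notch, chosen after its values were seen, gave 511 to 741 in High A4 and 697 to 771 in Control (log2 fold change of -0.15, limma's adjusted p 0.54). CCNC, a cyclin of the Mediator complex, had a log2 fold change of -0.50 (adjusted p = 0.206 from limma).

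In the cleavage step, 7 of 8 measured genes were above the noise threshold and 0 passed. ADAM17, a metalloprotease related to ADAM10, gave 454, 561, 633 and 674 in High A4 and 425, 461, 400 and 490 in Control. Only High A4 replicate 1 lay inside the Control range, and the log2 fold change was 0.38 (SE 0.15, limma's adjusted p 0.197). FURIN, which cuts the receptor on its way to the cell surface, had 0.21 (adjusted p = 0.473 from limma). Of the 5 glycosylation genes above the noise threshold, POGLUT1, which adds glucose to Notch, had the smallest p (154 ± 36.3 in High A4, against 215 ± 45.8 in Control, ± SD, 4 cows a group, log2 fold change of -0.49, limma's adjusted p 0.206). EOGT, which adds N-acetylglucosamine, lay below the noise threshold, with 62.7 ± 16.2 in High A4, against 83.8 ± 14.2 in Control (± SD, 4 cows a group).

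Of the 9 genes of endocytosis and turnover above the noise threshold, 0 passed. DTX3L, a ubiquitin ligase of the Deltex family, had 94.6 ± 16.4 in High A4, against 141 ± 29.7 in Control (± SD, 4 cows a group, log2 fold change of -0.57, limma's adjusted p 0.137), and NUMBL, an adaptor related to the Notch inhibitor NUMB, lay below 100 on average, with 89.1 ± 13.9 in High A4, against 66.4 ± 10.3 in Control. Among 11 corepressor genes above the noise threshold 0 passed, and CTBP2 (log2 fold change of -0.30, limma's adjusted p 0.215) and HDAC2 (-0.46, adjusted p = 0.215 from limma) had the smallest p. The groups did not overlap in CTBP2, with 109 to 142 in High A4 and 150 to 176 in Control.

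Of the 12 other target genes, 3 were above the noise threshold and 0 passed. HEY2, the HEY family member above noise and chosen after its values were seen, gave 769, 1197, 1048 and 717 in High A4, against 1121, 1090, 845 and 687 in Control. The groups covered nearly the same range, and the log2 fold change was -0.0091 (SE 0.22, limma's adjusted p 0.982) with a 95% interval of the fold change from 0.712 to 1.39 and a sign that turned between alternatives. HES4 (log2 fold change 0.29, adjusted p = 0.364) and BHLHE40 (0.47, adjusted p = 0.398) were the others, with p from limma and also chosen after their values were seen. HES4 was above noise only through its High A4 mean of 100.5, where its Control mean was 83.4. MYC, a growth regulator that is a Notch target in some cells, lay below the noise threshold with 29.4, 30.3, 31.3 and 24.9 in High A4, against 63.2, 73.6, 27.5 and 52.9 in Control. Control replicate 3 was again apart from the other Control cows, here within the High A4 range, and the log2 fold change was -0.82 (SE 0.27, limma's adjusted p 0.0866 without the filter) or -1.12 without that cow (adjusted p = 0.00475 from limma). With all 8 cows MYC also passed with quantile normalization (-0.98, adjusted p = 0.0483 from limma), so it passed in 2 of 17 alternatives. HEYL, also below noise, had 47.6 ± 7.51 in High A4, against 37.8 ± 8.30 in Control (± SD, 4 cows a group, adjusted p = 0.3 from limma without the filter).

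All 6 measured ligands outside the Jagged and Delta members examined above were below the noise threshold. CNTN1, a contactin of nerve cells that binds Notch in rodents and was chosen after its values were seen, had 49.0, 39.3, 50.8 and 41.5 in High A4, against 21.7, 18.7, 16.3 and 20.1 in Control. The groups did not overlap. In the fit of all 26773 probe sets, where 10.1% were called, its log2 fold change was 1.23 (SE 0.15, limma's adjusted p 0.000571), and it was past the threshold in 17 of 17 alternatives. All 8 values lie under the noise threshold of 100, so CNTN1 was not counted among the genes that rose.

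**Figure D5:**
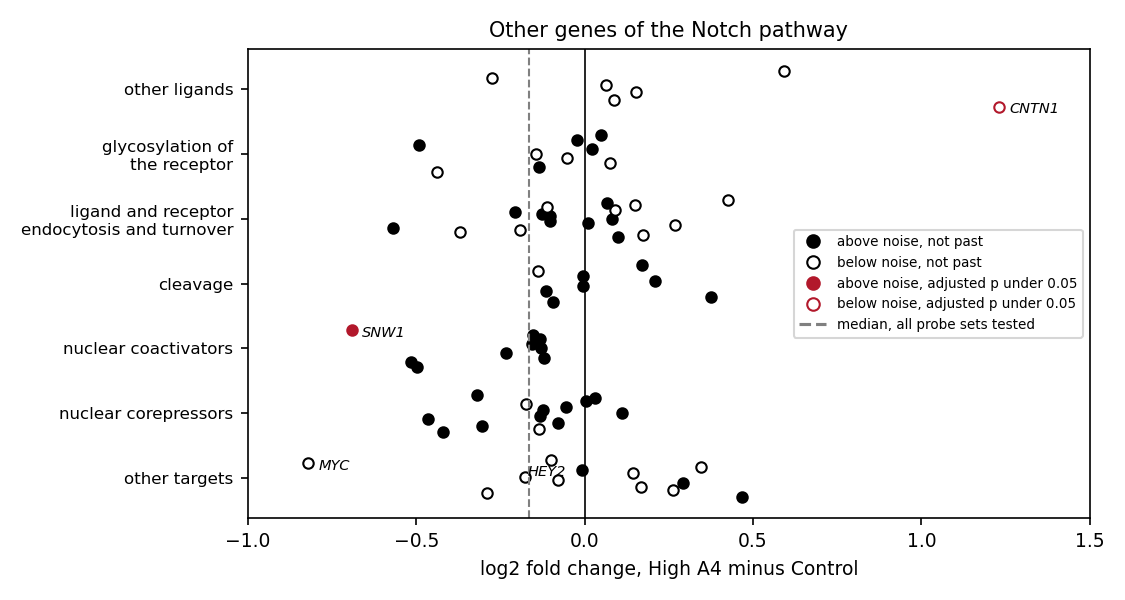
Log2 fold change, High A4 minus Control, of the 74 measured genes of the Notch pathway outside the receptors, ligands and targets examined first, by their step in the pathway. Filled points are above the noise threshold, open points below it, red points have an adjusted p under 0.05 from limma (SNW1 in the fit above noise, CNTN1 in the fit without the filter), and the dashed line marks the median of -0.16 over all probe sets tested.

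Genes whose values across the 8 cows were most like those of a Notch gene were sought among the other genes above noise. The measure was the mean absolute difference of log2 intensities, each centred on its mean over the 8 cows. RNASET2 (0.060), a lysosomal ribonuclease, and FZD8 (0.067), a WNT receptor, were nearest to NOTCH2, whose own mean absolute deviation was 0.155. CCNJL (0.20), a cyclin-like gene, and CHAC1 (0.23), an enzyme that degrades glutathione, were nearest to DLL4, whose own mean absolute deviation was 0.649. Both shared the high Control replicate 3, which follows from their choice by likeness to DLL4. CHAC1 gave 135, 183, 261 and 215 in High A4, against 127, 104, 231 and 94.3 in Control, and CCNJL gave 127, 179, 215 and 195 in High A4, against 106, 95.9, 243 and 93.5 in Control. Neither passed between the groups (adjusted p = 0.275 for CHAC1 and 0.331 for CCNJL from limma). BRI3BP and DCLRE1B (both 0.074) were nearest to HES1, a gene below the noise threshold with a mean absolute deviation of 0.271. For NOTCH2 and DLL4, 7789 probe sets were searched, and the likeness is a description with no test.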

How the data were processed

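The 8 cows were grouped by sample title into 4 High A4 and 4 Control, and RNA of their granulosa cells was hybridized to Bovine Gene 1.0 ST arrays of Affymetrix. The authors deposited linear, already normalized intensities in arbitrary units. Their methods speak of Robust Multi-Array Averaging, while GCRMA and Affymetrix Expression Console stand in the submitters' processing notes, so the summary method remains unsettled. Tool versions were not given in the sources examined. The log2 of each intensity was tested with limma 3.58.1 in R 4.3.3 over the 10120 probe sets whose mean was over 100 in High A4, in Control or in both, with Benjamini-Hochberg adjustment and a threshold of 0.05. Genes below 100 in both groups were taken from the same fit over all 26773 probe sets. By the platform annotation 18457 probe sets had a single symbol, 688 had several and 7628 had none, and the 10 Notch symbols were all in the gene names of ARS-UCD2.0. The Notch genes and the pathway and marker lists were chosen with earlier results of these data known. Named were all 10 Notch genes, pathway genes that passed, those with the 2 smallest p in each step with a gene above noise, markers that passed above noise or define a cell type, and the 2 genes most like the brightest receptor, ligand and target. Alternatives were other noise filters, scalings, an offset of 50, other variance models, an unmoderated analysis of variance, a replicate block and each cow left out. The number of arrays limits the precision.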

Additional observations from a re-analysis of the deposited data

Results flagged for a closer look

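DLL4 in Control replicate 3 had an intensity of 530, far from the other Control cows at 125 to 159, where Dixon's criterion was applied to the highest or lowest cow of each group. It was the only 1 of 20 groups of values (10 genes in both cow groups) past the criterion, and chance flags about 1 in 20. Over all 10120 probe sets tested, Control replicate 3 stood above the other Control cows by the same criterion in 122 (1.21%) and Control replicate 4 in 305 (3.01%). DLL4 was also highest in replicate 3 among the High A4 cows, at 445, without passing the criterion.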

How the results depend on the processing

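Over 18 alternatives for NOTCH1, NOTCH2 and DLL4 and 16 for the 7 genes below noise, 1 Notch gene passed in 1 alternative (DLL4, 1.23 without Control replicate 3). With 1 cow left out, log2 fold changes ranged from 0.37 to 0.84 in NOTCH1, 0.036 to 0.24 in NOTCH2, 0.54 to 1.23 in DLL4, -0.51 to -0.19 in JAG1, -0.46 to -0.18 in HES1 and -0.18 to 0.10 in HEY1, whose sign turned in 3 of these and with array weights (0.066). DLL1 turned to -0.044 with quantile normalization and -0.022 with cyclic loess. The other 8 Notch genes kept their sign. These scalings gave a median over all probe sets tested of -0.035 (quantile) and -0.013 (loess), and centring on the median of each array gave -0.24, beside -0.16. The 158 higher and 63 lower probe sets became 2267 and 440 with no noise filter, 68 and 17 where the filter took the mean of the 8 arrays, 328 and 939 with array weights, and 96 and 24 in the analysis of variance. The lower ones became 19 with quantile normalization and 18 with cyclic loess. With 1 cow left out, the higher ones were 114 to 302 and the lower ones 9 to 575, both highest without High A4 replicate 4 and the lower ones lowest without Control replicate 2. Of pathway genes, 1 was higher with no noise filter (CNTN1) and 1 with array weights (ADAM17). The 1 that fell (SNW1) became 0 with the filter on the mean of the 8 arrays, with quantile normalization, cyclic loess, the analysis of variance and the replicate block, and 0 to 2 with 1 cow left out. The cause of these changes was not tested. With the replicate number as a block, 135 probe sets were higher and 25 lower. Same-numbered cows had correlations of 0.189, -0.224, -0.113 and 0.203 in their deviations from the group means, so the numbers were not taken as pairs. No Notch gene had another probe set with a single symbol, so that alternative was not run. With 4 cows per group, the intervals of NOTCH1 and DLL4 are wide, and genes below the noise threshold have no reliable level.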
